A study of Homo sapiens with 11 samples.

Results

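The liver X receptors LXRβ (NR1H2) and LXRα (NR1H3) and 4 genes that they are known to control in sterol and phospholipid handling (ABCA1, ABCG1, MYLIP and LPCAT3) were examined in a human colon cancer cell line given fungal extracts. The 6 genes were taken from a raw read count table by their symbols, and each matched 1 of the 61464 rows. All 6 had enough counts to be tested, as did 17963 genes in all. The cells were HCT116, an established line from a colorectal carcinoma, labelled as epithelial and as carrying a ras mutation. They were kept for 48 h with GTEA7 (4 libraries), with GTEA1 (4 libraries) or with the solvent DMSO alone (3 libraries). GTEA7 and GTEA1 are code names of triterpenoid extracts of the mushroom Ganoderma, for which neither doses nor compositions were given. By its title, the series asks about stemness and migration. The limit of the model is that all libraries come from 1 cell line at 1 time, and nothing states that the replicates of a group were grown apart, so p-values measure only the spread between these libraries.

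LXRα and LXRβ are nuclear receptors that bind oxysterols, which are oxidised derivatives of cholesterol, and also desmosterol, the last intermediate of one branch of cholesterol synthesis. Each pairs with a retinoid X receptor (RXR) and sits on a DNA element called DR4, a direct repeat of AGGTCA with a spacer of 4 bases. With no ligand the pair can hold corepressors at its targets, and with ligand it recruits coactivators. The targets move cholesterol out of the cell (ABCA1, ABCG1), lower its uptake (MYLIP, whose protein IDOL marks lipoprotein receptors for degradation) and put polyunsaturated acyl chains into membrane phospholipids (LPCAT3). In the intestine the same receptors are known to limit cholesterol absorption. The SREBP2 pathway works in the opposite sense, since it raises cholesterol synthesis and uptake when sterols in the endoplasmic reticulum run low.

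The ABCA1 promoter is shown because it holds the textbook LXR element of the gene whose counts moved most. The stretch is chr9:104928179-104928254 on the minus strand of GRCh38.p14, from RefSeq, 5′ to 3′, and it ends 24 bases before the annotated start. Capitals mark the best match to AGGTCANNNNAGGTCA on either strand, here on the opposite strand to the gene.
ABCA1: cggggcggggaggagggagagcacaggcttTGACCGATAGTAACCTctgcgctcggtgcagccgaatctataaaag
The match lies 69 to 54 bases before the start and holds 10 of the 12 fixed letters. Of 35116 promoter windows of 300 bases (250 before the start and 50 after it), 2.34% held a match at least as good. The best matches in the windows of MYLIP, NR1H2, NR1H3 and LPCAT3 held 8 of 12 letters, a score that 72.5% of all windows reached. No window for ABCG1 was used here. A match of letters is a description and says nothing of binding.

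Total counts lay between 14955685 and 19304211 for GTEA7, between 13742326 and 16433111 for GTEA1 and between 13866350 and 17431515 for DMSO. Values are CPM, counts scaled to depth with TMM factors, given as mean ± SD with n = 4 for each extract and n = 3 for DMSO. A log2 fold change is followed by ± its standard error. The 95% intervals are a normal approximation from that standard error and are not adjusted for the number of genes. They can be somewhat too narrow, and an interval that leaves out 0 is not a pass. The threshold for a pass was an adjusted p (Benjamini-Hochberg, over all tested genes) under 0.05 in edgeR's quasi-likelihood test. Summed CPM of 10 colon epithelial markers lay between 2230 and 2330 in GTEA7, between 2720 and 2850 in GTEA1 and between 2230 and 2380 in DMSO. Among them the keratins KRT8, KRT18 and KRT19 and EPCAM were abundant, CDX1 was at 0 in every library, and VIL1 and LGALS4 had too few counts to be tested. Of the 7 tested, 3 rose and 4 fell in GTEA1 against DMSO, with a median log2 fold change of -0.26. The higher GTEA1 sum came mainly from KRT19, at 1030 CPM in GTEA1 and 452 CPM in DMSO, and EPCAM, at 359 and 234 CPM, while KRT8, KRT18, CDX2 and KRT20 fell. The 10 macrophage markers summed to 1.09 to 1.94 CPM in GTEA7, 1.15 to 1.37 CPM in GTEA1 and 1.47 to 1.67 CPM in DMSO. The 8 fibroblast markers summed to 37 to 46.1, 38.4 to 46.5 and 54 to 55.4 CPM in the same order of groups, nearly all of it from COL1A1. The 6 endothelial markers summed to at most 4.47 CPM in any library. What part these marker differences have in the results was not tested. In these bulk libraries, fewer cells of a type and less RNA per cell cannot be told apart.

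The receptors did not move together. NR1H2 (ENSG00000131408), which encodes the broadly expressed LXRβ, had 17.3, 18, 17.5 and 18.7 CPM in the GTEA7 libraries, 29.6, 31.8, 28.2 and 27.6 CPM in the GTEA1 libraries and 17.3, 19.1 and 17.8 CPM in the DMSO libraries. Every GTEA1 library lay above every other library, and GTEA7 and DMSO overlapped. NR1H2 rose in GTEA1 against DMSO by 0.69 ± 0.067 on the log2 scale (adjusted p = 3.8e-13). In GTEA7 against DMSO its log2 fold change was -0.02 ± 0.07 (adjusted p = 0.88), with a 95% interval from -0.16 to 0.12. GTEA7 was lower than GTEA1 by a log2 fold change of -0.71 ± 0.061 (adjusted p = 8.3e-15).

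NR1H3 (ENSG00000025434), which encodes LXRα, the form best known in liver, intestine and macrophages, had 10.1, 11.8, 9.49 and 9.85 CPM in GTEA7, 11.3, 11.8, 11.3 and 10.3 CPM in GTEA1 and 11.8, 12 and 11.1 CPM in DMSO. All groups overlapped. Its log2 fold changes were -0.17 ± 0.091 in GTEA7 against DMSO (adjusted p = 0.18), -0.07 ± 0.092 in GTEA1 against DMSO (adjusted p = 0.5) and -0.10 ± 0.087 in GTEA7 against GTEA1 (adjusted p = 0.29). The 95% intervals ran from -0.35 to 0.00, from -0.25 to 0.11 and from -0.27 to 0.07 on the log2 scale. With library size as the only scaling, NR1H3 was lower in GTEA1 than in DMSO (-0.23, adjusted p = 0.024), and GTEA7 against GTEA1 turned to 0.01.

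A ratio of NR1H2 to NR1H3 within a library does not depend on the scaling. Per base of the longest annotated transcript it was 1.96, 1.76, 2.11 and 2.17 in GTEA7, 3.01, 3.11, 2.88 and 3.08 in GTEA1 and 1.68, 1.82 and 1.84 in DMSO. The size of the ratio depends on the length chosen, while its log2 differences between groups do not. With the median transcript length, mean DMSO levels in CPM per kilobase were closer, at 20.2 for NR1H2 and 14.9 for NR1H3. The GTEA1 ratios were above all others, and those of GTEA7 and DMSO overlapped. In exact two-sided permutation tests over libraries, adjusted over 3 comparisons, the log2 ratio differed by 0.76 between GTEA1 and DMSO (p = 0.0286, adjusted 0.0429) and by -0.60 between GTEA7 and GTEA1 (p = 0.0286, adjusted 0.0429). GTEA7 and DMSO differed by 0.16 (exact permutation p = 0.171, adjusted 0.171). The smallest p that each of these tests allows is 0.0286.

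**Figure D1:**
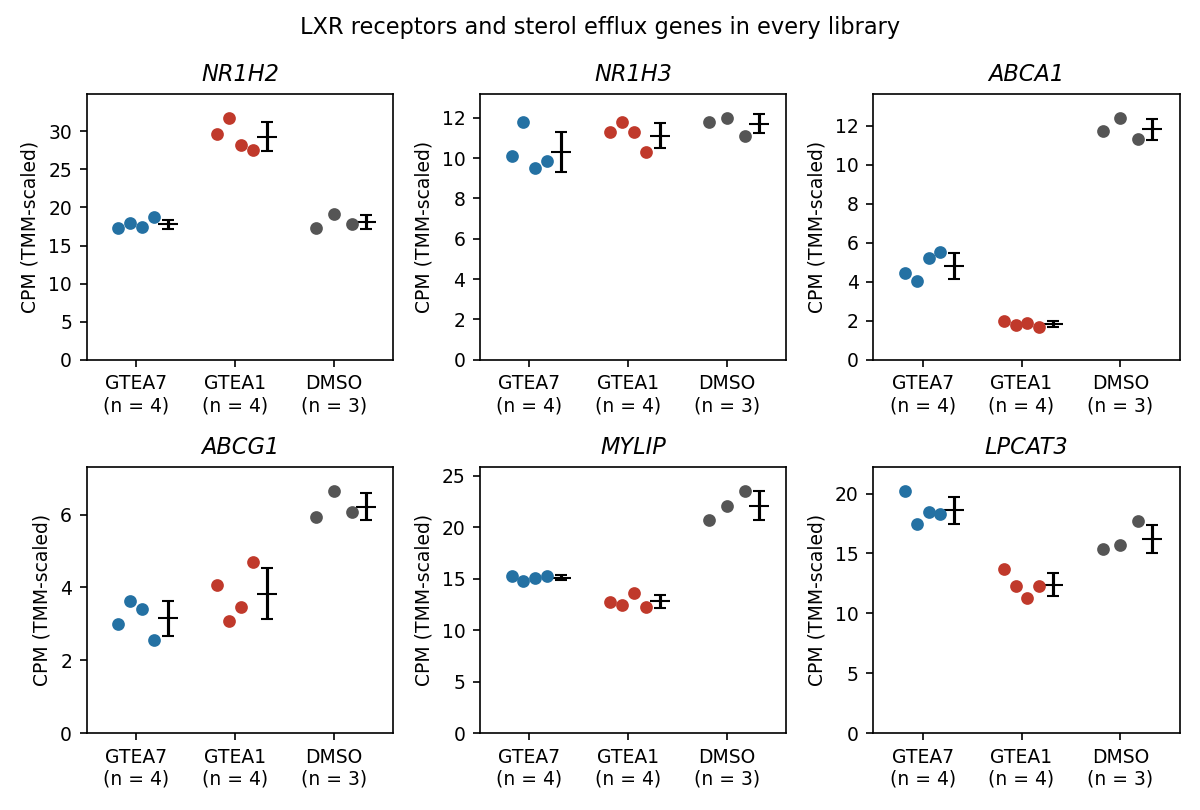
CPM (TMM-scaled, linear axes from 0) of the 6 genes in each library, with 1 panel per gene. Points are libraries, and the black bar beside each group is its mean ± SD (n = 4 for GTEA7 and GTEA1, n = 3 for DMSO). For ABCA1, ABCG1 and MYLIP every library of either extract lay below every DMSO library, whereas NR1H2 was high in GTEA1 only.

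ABCA1 (ENSG00000165029) encodes the membrane transporter that loads cholesterol and phospholipid onto lipid-poor apolipoprotein A-I. It had 4.43, 4.04, 5.19 and 5.52 CPM in GTEA7, 1.99, 1.76, 1.9 and 1.67 CPM in GTEA1 and 11.7, 12.4 and 11.3 CPM in DMSO. No groups overlapped, with DMSO highest and GTEA1 lowest. ABCA1 fell to 40.2% of its DMSO level in GTEA7 (log2 fold change -1.32 ± 0.11, adjusted p = 4.1e-14) and to 15.5% of it in GTEA1 (-2.69 ± 0.14, adjusted p = 1.1e-23). The extracts differed from each other too, GTEA7 being 2.6-fold above GTEA1 (log2 fold change 1.38 ± 0.15, adjusted p = 2.2e-11). Among the 17963 tested genes, 19 (0.106%) had a lower log2 fold change than ABCA1 in GTEA7 against DMSO, and 199 (1.11%) did in GTEA1 against DMSO. Its counts were small, with 24 to 29 reads per GTEA1 library, 77 to 88 per GTEA7 library and 164 to 230 per DMSO library.

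ABCG1 (ENSG00000160179) encodes a transporter that passes cholesterol on to mature high-density lipoprotein and moves sterol inside cells. It had 2.99, 3.63, 3.42 and 2.56 CPM in GTEA7, 4.07, 3.09, 3.47 and 4.69 CPM in GTEA1 and 5.93, 6.64 and 6.07 CPM in DMSO. Each extract lay wholly below DMSO, and the extracts overlapped. ABCG1 fell in GTEA7 (log2 fold change -0.97 ± 0.14, adjusted p = 3.6e-07) and in GTEA1 (-0.70 ± 0.14, adjusted p = 1.6e-05), both against DMSO. In GTEA7 against DMSO 75 genes (0.418%) had a lower log2 fold change, and in GTEA1 against DMSO 3465 (19.3%) had. Between the extracts the log2 fold change was -0.27 ± 0.15 (adjusted p = 0.091), with a 95% interval from -0.56 to 0.02. It passed without GTEA1 replicate 2 (-0.36, adjusted p = 0.036) or without GTEA7 replicate 2 (-0.35, adjusted p = 0.049).

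MYLIP (ENSG00000007944) encodes IDOL, the ubiquitin ligase that sends lipoprotein receptors to the lysosome. It had 15.3, 14.8, 15.1 and 15.3 CPM in GTEA7, 12.7, 12.4, 13.6 and 12.3 CPM in GTEA1 and 20.7, 22.1 and 23.5 CPM in DMSO. The groups were again apart in the order DMSO, GTEA7, GTEA1 from high to low, as for ABCA1, but over a narrower span. MYLIP fell in GTEA7 (log2 fold change -0.54 ± 0.07, adjusted p = 3.8e-08) and in GTEA1 (-0.79 ± 0.074, adjusted p = 1.9e-13) against DMSO. GTEA7 was higher than GTEA1 by 0.25 ± 0.074 on the log2 scale (adjusted p = 0.0028). In GTEA7 against DMSO 3.67% of tested genes had a lower log2 fold change, and in GTEA1 against DMSO 17.1% had.

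LPCAT3 (ENSG00000111684) encodes an acyltransferase of the endoplasmic reticulum that puts arachidonoyl and linoleoyl chains into lysophosphatidylcholine. It had 20.2, 17.5, 18.5 and 18.3 CPM in GTEA7, 13.7, 12.3, 11.3 and 12.3 CPM in GTEA1 and 15.4, 15.7 and 17.7 CPM in DMSO. GTEA1 was below all other libraries, and GTEA7 and DMSO overlapped through GTEA7 replicate 2 and DMSO replicate 3. LPCAT3 fell in GTEA1 against DMSO (log2 fold change -0.38 ± 0.083, adjusted p = 6.2e-05), and GTEA7 was higher than GTEA1 (0.58 ± 0.075, adjusted p = 1.9e-09). In GTEA7 against DMSO the log2 fold change was 0.20 ± 0.076 and narrowly missed the threshold (adjusted p = 0.051), with a 95% interval from 0.05 to 0.35. It stayed short of the threshold under 12 of the 19 alternatives. Over all of them it ran from 0.15 to 0.26, with adjusted p from 0.032 to 0.2. It passed when the fit held the compared groups alone (0.20, adjusted p = 0.032) and with DESeq2 size factors (0.21, adjusted p = 0.04). It also passed without DMSO replicate 3 (0.26, adjusted p = 0.032), GTEA1 replicate 1 (0.20, adjusted p = 0.033), GTEA1 replicate 3 (0.20, adjusted p = 0.044), GTEA1 replicate 4 (0.20, adjusted p = 0.042) or GTEA7 replicate 2 (0.23, adjusted p = 0.043).

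The count of LPCAT3 is less certain than the others. In GENCODE v29, 3100 of its 4725 exon bases are also exon of EMG1, a ribosome assembly gene on the opposite strand, and the strand setting of the counting is not given. EMG1 rose in GTEA7 (log2 fold change 0.22, adjusted p = 0.0011) and in GTEA1 (0.31, adjusted p = 8.9e-07) against DMSO. What part such reads have in the LPCAT3 values was not tested. NR1H3 shares 189 exon bases with ACP2 on the opposite strand, and ACP2 was at -0.03 in GTEA7 against DMSO (adjusted p = 0.83) and -0.07 in GTEA1 against DMSO (adjusted p = 0.46). ABCA1, ABCG1, MYLIP and NR1H2 share no exon bases with another annotated gene.

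Counted over the 6 genes, 3 fell and 0 rose in GTEA7 against DMSO, where 22.5% of all tested genes passed (12% of those tested higher, 10.4% lower). Those that fell were ABCA1, ABCG1 and MYLIP. The same 3 had every GTEA7 library below every DMSO library, as 14.9% of all tested genes had, while 15.6% had the reverse and 30.5% either. In GTEA1 against DMSO 4 fell (ABCA1, ABCG1, MYLIP and LPCAT3) and 1 rose (NR1H2). There 71.8% of all tested genes passed, with 36.2% lower and 35.6% higher, so a count of 5 of 6 lies near the background. Groups did not overlap for the same 5 genes, 1 above and 4 below, against 33.9% of all tested genes above, 34.8% below and 68.7% in either direction. Scaled by library size alone, the genome-wide split was 1255 higher and 2954 lower in GTEA7 (2159 and 1877 with TMM) and 4828 higher and 8179 lower in GTEA1 (6390 and 6505 with TMM). GTEA7 against GTEA1 had 3 genes higher (ABCA1, MYLIP and LPCAT3) and 1 lower (NR1H2), where 72.7% of all tested genes passed (36.2% higher, 36.4% lower). These 4 did not overlap between the extracts, as 65.3% of all tested genes did not (32.8% above, 32.5% below). The median log2 fold change of the 6 genes was -0.36 in GTEA7 and -0.54 in GTEA1 against DMSO, while that of all tested genes was -0.01 in both. GTEA7 and GTEA1 were set against the same DMSO libraries, so their values are not independent. The falls of ABCA1, ABCG1 and MYLIP against DMSO and the rise of NR1H2 in GTEA1 passed under all 19 alternative settings tried.

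**Figure D2:**
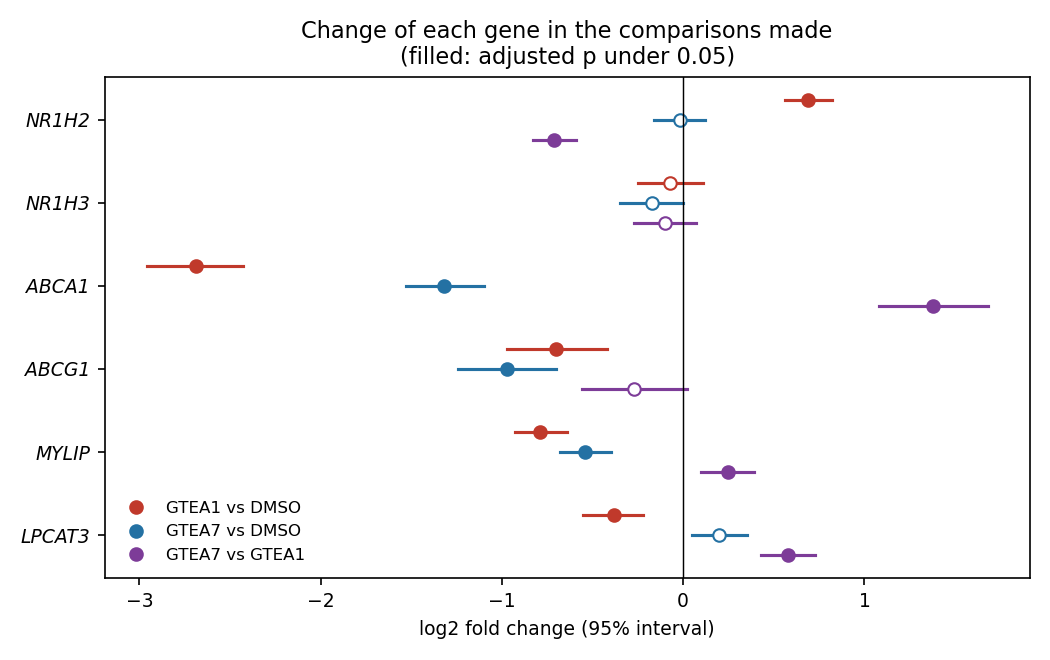
Log2 fold change of each gene in GTEA1 against DMSO, GTEA7 against DMSO and GTEA7 against GTEA1, with lines for 95% intervals and filled points where the adjusted p was under 0.05. ABCA1 reaches -2.69 in GTEA1 and -1.32 in GTEA7, and NR1H3 is near 0 throughout.

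Levels between the genes were compared as CPM per kilobase of the longest GENCODE v29 transcript. In DMSO MYLIP was at 7.89 ± 0.5 (SD, n = 3) and NR1H2 at 7.59 ± 0.4, and their libraries overlapped. LPCAT3 followed at 5.59 ± 0.43, NR1H3 at 4.27 ± 0.18, ABCG1 at 1.79 ± 0.11 and ABCA1 at 1.13 ± 0.053, each apart from its neighbours. The efflux transporters were thus the least abundant of the set in DMSO on this scale. The order depends on the length chosen. With the median transcript length, NR1H2 and LPCAT3 came to 20.2 each, NR1H3 to 14.9, MYLIP to 9.89, ABCA1 to 9.6 and ABCG1 to 2.07.

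By the correlation of log2 CPM over the 11 libraries with 13932 other genes, ABCA1 was most like ID3 (Pearson r = 0.996), MSX2 (r = 0.995) and MATCAP1 (r = 0.993). ID3, an inhibitor of basic helix-loop-helix factors, averaged 21.5 ± 1.8 CPM in GTEA7, 7.83 ± 0.68 CPM in GTEA1 and 59.1 ± 2.5 CPM in DMSO. MSX2, a homeobox gene, averaged 26.1 ± 1.6, 12.3 ± 1.3 and 49.4 ± 1.6 CPM in the same groups. These correlations are descriptions over libraries that share the large GTEA1 shift: 983 genes had r over 0.9 with ABCA1 and 2901 had with NR1H2. H6PD (r = 0.994) and KIF16B (r = 0.991) were among the nearest to NR1H2, and nearest to MYLIP were DBNDD1 (r = 0.982), B4GALNT3 (r = 0.981) and PTPRU (r = 0.979). LPCAT3 was closest to TMEM250 (r = 0.979), TATDN2 (r = 0.973) and ISCA1 (r = 0.971). ABCG1 had few close matches, with 5 genes over 0.9, led by ZNRF1 (r = 0.941), ABCF3 (r = 0.934) and PLCXD2 (r = 0.925). NR1H3 had 1 such gene, NLGN3 (r = 0.917), followed by TYW1B (r = 0.879) and EFNB1 (r = 0.845). The nearest genes depend on the measure, since a ranking by Spearman's rho kept 0 of the 3 for MYLIP, NR1H2 and LPCAT3.

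The other genes of the pathway are given by lists. Each list's share of genes that passed stands beside that of all tested genes, 22.5% in GTEA7 and 71.8% in GTEA1, and a share near it is not a result about the list. Among other known LXR targets, SREBF1, SCD and FASN drive or carry out fatty acid synthesis and desaturation. SREBF1 averaged 132 ± 5.5 CPM in GTEA7, 147 ± 9.9 CPM in GTEA1 and 106 ± 3.3 CPM in DMSO, and it rose in GTEA7 (log2 fold change 0.31 ± 0.043, adjusted p = 3.1e-07) and in GTEA1 (0.46 ± 0.043, adjusted p = 2.7e-13). SCD, the stearoyl-CoA desaturase, rose in GTEA7 (1.14 ± 0.039, adjusted p = 8.5e-29) and fell in GTEA1 (-0.24 ± 0.038, adjusted p = 2.5e-07). Fatty acid synthase, FASN, did likewise, at 1.00 ± 0.084 in GTEA7 and -0.52 ± 0.083 in GTEA1 (adjusted p = 2.7e-05 and 0.00033). In GTEA1 the phospholipid transfer protein gene PLTP (1.67 ± 0.15) and the engulfment receptor gene MERTK (1.63 ± 0.076) rose, while in GTEA7 they were at -0.12 and -0.10 (adjusted p = 0.7 and 0.46). MLXIPL, a glucose-responsive factor, was lower in GTEA7 than in GTEA1 (-0.39 ± 0.043, adjusted p = 2.7e-11). APOE averaged 0.95 ± 0.44 CPM in GTEA7, 1.17 ± 0.23 CPM in GTEA1 and 0.997 ± 0.03 CPM in DMSO and did not pass in any comparison. Over the 16 listed targets, 9 could be tested: 3 rose and 1 fell in GTEA7, and 5 rose and 2 fell in GTEA1, with medians of -0.05 and 0.28. That is 44.4% of those tested in GTEA7 and 77.8% in GTEA1.

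Next come the partners and cofactors of the receptors. RXRA, the main partner of LXR in many tissues, fell in GTEA7 (log2 fold change -0.24 ± 0.047, adjusted p = 8.5e-05) and in GTEA1 (-0.20 ± 0.047, adjusted p = 0.0002), while RXRB was at 0.05 and 0.20 (adjusted p = 0.81 and 0.1). RXRG and the corepressor subunit gene GPS2 are listed at 0 in every library. The annotation and strand setting of the counting are not given, so a listed 0 does not show that a gene is silent. The corepressor gene NCOR1 averaged 72 ± 2.8 CPM in GTEA7, 197 ± 19 CPM in GTEA1 and 80.5 ± 2.4 CPM in DMSO, and it rose in GTEA1 (1.29 ± 0.061, adjusted p = 4.9e-13). The coactivator gene NCOA3 (1.11 ± 0.044, adjusted p = 3.3e-26) and TBL1X, of the same corepressor complex as NCOR1 (0.57 ± 0.042, adjusted p = 3.9e-17), rose in GTEA1. The fall of the acetyltransferase gene EP300 in GTEA7 was small (-0.13, adjusted p = 0.024) and lost under 6 of the alternatives. NRIP1, a cofactor best known as a corepressor of nuclear receptors, was at 85.8 ± 1.6 CPM in GTEA7, 17.1 ± 2.6 CPM in GTEA1 and 41.5 ± 1.9 CPM in DMSO. It rose in GTEA7 (1.05 ± 0.052, adjusted p = 1.4e-21) and fell in GTEA1 (-1.29 ± 0.066, adjusted p = 9.8e-23). Of 15 tested partners and cofactors, 1 rose and 3 fell in GTEA7, and 8 rose and 4 fell in GTEA1. The shares that passed, 26.7% in GTEA7 and 80% in GTEA1, lie near those of all tested genes. Under library-size scaling the GTEA1 count was 4 higher and 6 lower, and the GTEA7 count 1 higher and 5 lower.

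Other nuclear receptors also pair with RXR. PPARG, a fatty acid receptor, averaged 38 ± 1.5 CPM in GTEA7, 59.1 ± 3.3 CPM in GTEA1 and 25.4 ± 1.6 CPM in DMSO, and it rose in GTEA7 (0.58 ± 0.058, adjusted p = 2.9e-11) and in GTEA1 (1.22 ± 0.056, adjusted p = 3.2e-25). In GTEA1 the retinoic acid receptor gene RARG (0.89 ± 0.049) and the orphan receptor gene NR4A1 (2.01 ± 0.082) rose, at adjusted p = 4.9e-22 and 2.2e-27. NR4A2 rose in GTEA7 (0.40 ± 0.055, adjusted p = 2.2e-07) and fell in GTEA1 (-0.51 ± 0.062, adjusted p = 3.1e-10). Of 11 tested, 3 rose and 0 fell in GTEA7 (27.3%, near the share of all genes), and 8 rose and 3 fell in GTEA1 (all 11 passed). With library size only, the counts were 2 higher and 3 lower in GTEA7 and 5 higher and 3 lower in GTEA1. The third that rose in GTEA7 was the vitamin D receptor gene VDR (0.17 ± 0.065, adjusted p = 0.05 after rounding), a call that was lost under 11 of the alternatives. In GTEA1 the rises of THRB (0.25, adjusted p = 0.045) and NR1I3 (0.82, adjusted p = 0.044) were lost under 11 and 8 of the alternatives. Both genes are named here after their values were seen.

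Most genes of the SREBP2 list were higher, unlike the efflux transporters. INSIG1, a sterol-sensing protein of the endoplasmic reticulum, averaged 191 ± 7.6 CPM in GTEA7, 160 ± 14 CPM in GTEA1 and 60.3 ± 1.6 CPM in DMSO, a rise of 1.66 ± 0.052 in GTEA7 and 1.40 ± 0.053 in GTEA1 on the log2 scale (adjusted p = 4.2e-21 and 1.1e-20). The factor gene SREBF2 rose by 0.63 ± 0.038 in GTEA7 and 0.67 ± 0.038 in GTEA1 (adjusted p = 3.7e-19 and 1.4e-21). MSMO1, IDI1 and SQLE, enzymes of the same synthesis, rose in GTEA7 by 1.50 ± 0.042, 1.41 ± 0.046 and 1.00 ± 0.036 (adjusted p = 9.7e-33, 1.5e-28 and 6.3e-28), and MSMO1 by 2.24 ± 0.041 in GTEA1 (adjusted p = 2.5e-42). Lanosterol synthase, LSS, rose in GTEA7 (0.56 ± 0.055) and fell in GTEA1 (-1.34 ± 0.069), at adjusted p = 1e-11 and 3.1e-23. Of 14 tested genes of this list, 11 rose and 0 fell in GTEA7, and 9 rose and 2 fell in GTEA1, with medians of 0.93 and 0.69. In each extract 78.6% of the list passed.

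Other genes of lipoprotein uptake were taken as a list. LRP8 rose in GTEA7 (0.48 ± 0.037, adjusted p = 5.7e-15). In GTEA1 LRP8 was at 0.11 ± 0.038 (adjusted p = 0.011), and it turned to -0.05 with library size only. In GTEA1 UBE2D4 rose (0.52 ± 0.11, adjusted p = 2.2e-05), while UBE2D3 (0.22) and UBE2D2 (0.14) passed with TMM but were at 0.06 and -0.02 with library size only. UBE2D3 passed in GTEA7 too (0.10, adjusted p = 0.03), a call lost under 5 of the alternatives. VLDLR had 63 counts over all libraries and was not tested. Of 9 tested genes of this list, which holds the UBE2D enzymes that work with IDOL, 4 rose and 0 fell in GTEA7 (44.4%), and 5 rose and 1 fell in GTEA1 (66.7%). By library size alone, 3 rose and 1 fell in GTEA7, and 2 rose and 1 fell in GTEA1.

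**Figure D3:**
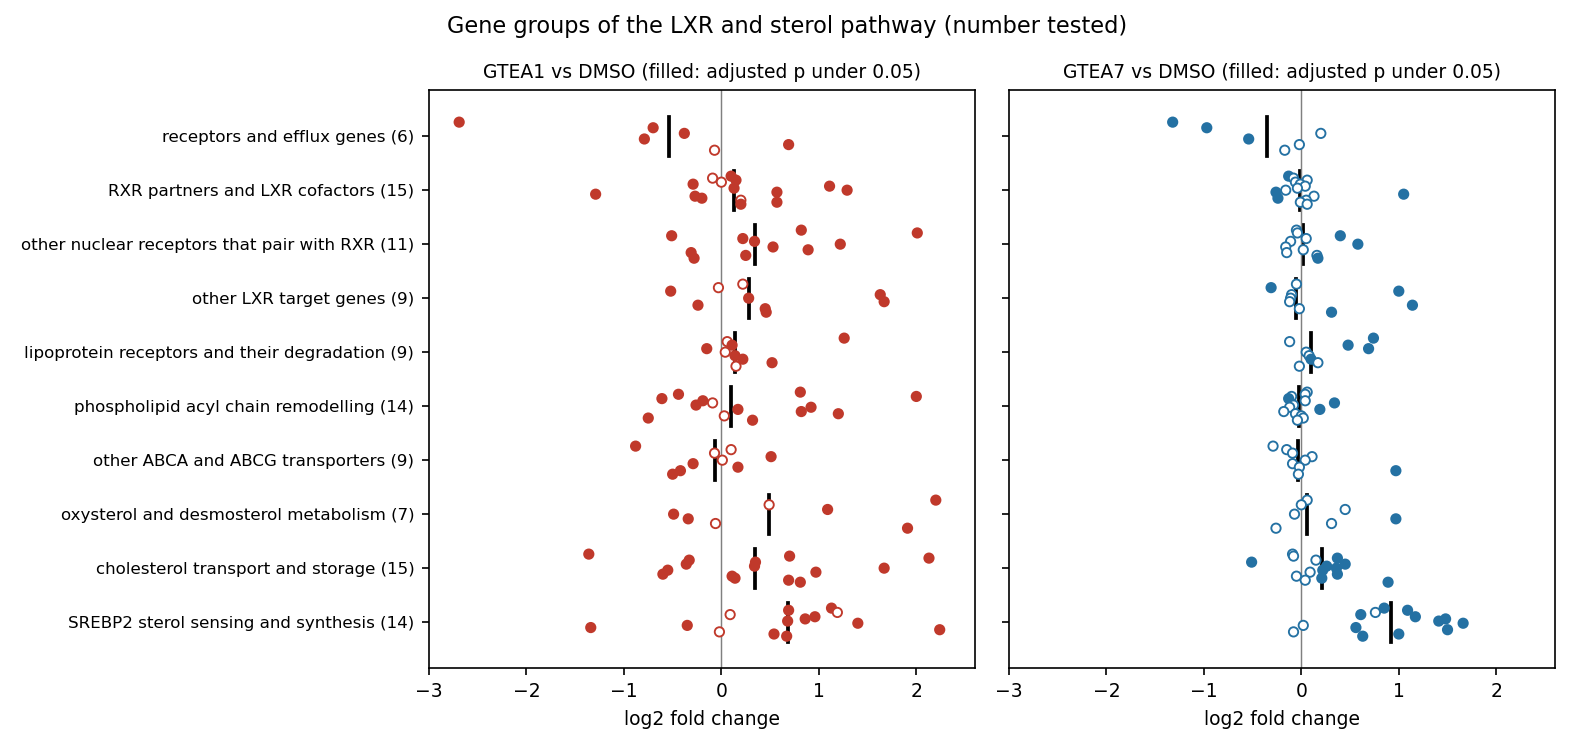
Log2 fold change against DMSO of each tested gene of the 6-gene set and of 9 related lists (1 point per gene, filled where the adjusted p was under 0.05, black bar at the list median, number tested in brackets). The set has medians of -0.54 in GTEA1 (left) and -0.36 in GTEA7 (right), while the SREBP2 list has 0.69 and 0.93.

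Among the other ABCA and ABCG transporters, ABCG2, a drug exporter, rose in GTEA7 (log2 fold change 0.97 ± 0.12, adjusted p = 1.3e-08). Its average was 8.21 ± 0.51 CPM in GTEA7, 3.14 ± 0.35 CPM in GTEA1 and 4.23 ± 0.65 CPM in DMSO, and its fall in GTEA1 (-0.42 ± 0.15, adjusted p = 0.012) was lost without DMSO replicate 3. ABCA3, a phospholipid transporter of lung lamellar bodies, rose in GTEA1 (0.51 ± 0.062, adjusted p = 4.6e-10). ABCA5 fell in GTEA1 (-0.29 ± 0.055, adjusted p = 6.8e-06), as did ABCG4, the closest relative of ABCG1 (-0.50 ± 0.12, adjusted p = 0.00017). ABCA7 passed in GTEA1 (0.17, adjusted p = 0.00025) but was at 0.01 by library size alone. Of 9 tested, 1 rose and 0 fell in GTEA7, and 2 rose and 4 fell in GTEA1. The shares that passed were 11.1% and 66.7%, beside 22.5% and 71.8% of all tested genes. With only 9 genes tested, this is not a result about the list. With library size only, 1 rose and 2 fell in GTEA7, and 1 rose and 5 fell in GTEA1.

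Sterol transport and storage genes were taken as a further list. NPC1, which exports cholesterol from lysosomes, averaged 73.8 ± 2 CPM in GTEA7, 183 ± 13 CPM in GTEA1 and 57.4 ± 1.4 CPM in DMSO, and it rose in GTEA7 (0.36 ± 0.047, adjusted p = 5.3e-08) and in GTEA1 (1.67 ± 0.045, adjusted p = 1e-34). STARD4, a soluble sterol carrier, rose in GTEA7 (0.89 ± 0.042) and in GTEA1 (0.81 ± 0.043), at adjusted p = 3.5e-23 and 6.4e-23. GRAMD1B, which carries plasma membrane cholesterol to the endoplasmic reticulum, rose in GTEA7 (0.37 ± 0.07) and in GTEA1 (2.13 ± 0.06), at adjusted p = 7.4e-05 and 3e-34. SCARB1, the high-density lipoprotein receptor, rose in GTEA7 (0.37 ± 0.042) and fell in GTEA1 (-0.60 ± 0.045), at adjusted p = 9.7e-10 and 5.8e-17. LIPA, the lysosomal acid lipase, rose in GTEA7 (0.45 ± 0.046) and fell in GTEA1 (-0.36), at adjusted p = 7.3e-11 and 8.7e-09. In GTEA1 CAV1, which encodes caveolin, fell (-1.36 ± 0.037, adjusted p = 6.2e-35) and OSBP, an oxysterol-binding protein, rose (0.97 ± 0.039, adjusted p = 5.4e-28). Of 15 tested, 8 rose and 1 fell in GTEA7 (60%), and 10 rose and 5 fell in GTEA1 (all 15 passed). LCAT, the gene of this list that fell in GTEA7 (-0.51, adjusted p = 0.011), is named here after its values were seen. It lost its call without DMSO replicate 1 or GTEA7 replicate 2 or 3. With library size only, 3 fell in GTEA7, and the GTEA1 count was 7 higher and 5 lower.

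Few genes that make or clear LXR ligands had counts. CH25H and CYP7B1 are listed at 0 in every library. CYP27A1, a sterol hydroxylase, averaged 1.28 ± 0.39 CPM in GTEA7, 1.8 ± 0.36 CPM in GTEA1 and 1.28 ± 0.34 CPM in DMSO and passed against DMSO in neither extract. SULT2B1, a sulfotransferase of cholesterol and oxysterols, rose in GTEA1 (1.91 ± 0.19, adjusted p = 2.3e-12), at 4.96 ± 0.4 CPM in GTEA1 against 1.31 ± 0.19 CPM in DMSO. CYP39A1, an oxysterol hydroxylase, rose in GTEA1 (1.09 ± 0.22, adjusted p = 1.6e-05), as did CYP11A1, from few counts (2.20 ± 0.49, adjusted p = 0.0001). The neuronal sterol hydroxylase gene CYP46A1 fell in GTEA1 (-0.49 ± 0.15, adjusted p = 0.0034). Of 7 tested, 1 rose and 0 fell in GTEA7 (14.3%), and 3 rose and 2 fell in GTEA1 (71.4%).

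The last list holds the relatives of LPCAT3 in phospholipid remodelling. LPCAT1, the form best known from lung surfactant, rose in GTEA7 (0.34 ± 0.043, adjusted p = 3.5e-08) and was at -0.09 ± 0.046 in GTEA1 (adjusted p = 0.081). LPCAT4 (0.92 ± 0.047), MBOAT2 (1.20 ± 0.057), AGPAT2 (0.81 ± 0.058) and AGPAT4 (2.00 ± 0.053), acyltransferases of lysophospholipids, rose in GTEA1, with adjusted p-values of 2.2e-23, 1.5e-17, 9.3e-18 and 2.7e-34. LPGAT1 rose in GTEA7 (0.19 ± 0.038, adjusted p = 0.00019), and the fall of AGPAT5 there (-0.13, adjusted p = 0.047) was lost under 10 of the alternatives. Of 14 tested, 2 rose and 1 fell in GTEA7 (21.4%), and 7 rose and 5 fell in GTEA1 (85.7%). The library-size count was 2 higher and 3 lower in GTEA7, and 5 higher and 6 lower in GTEA1.

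**Figure D4:**
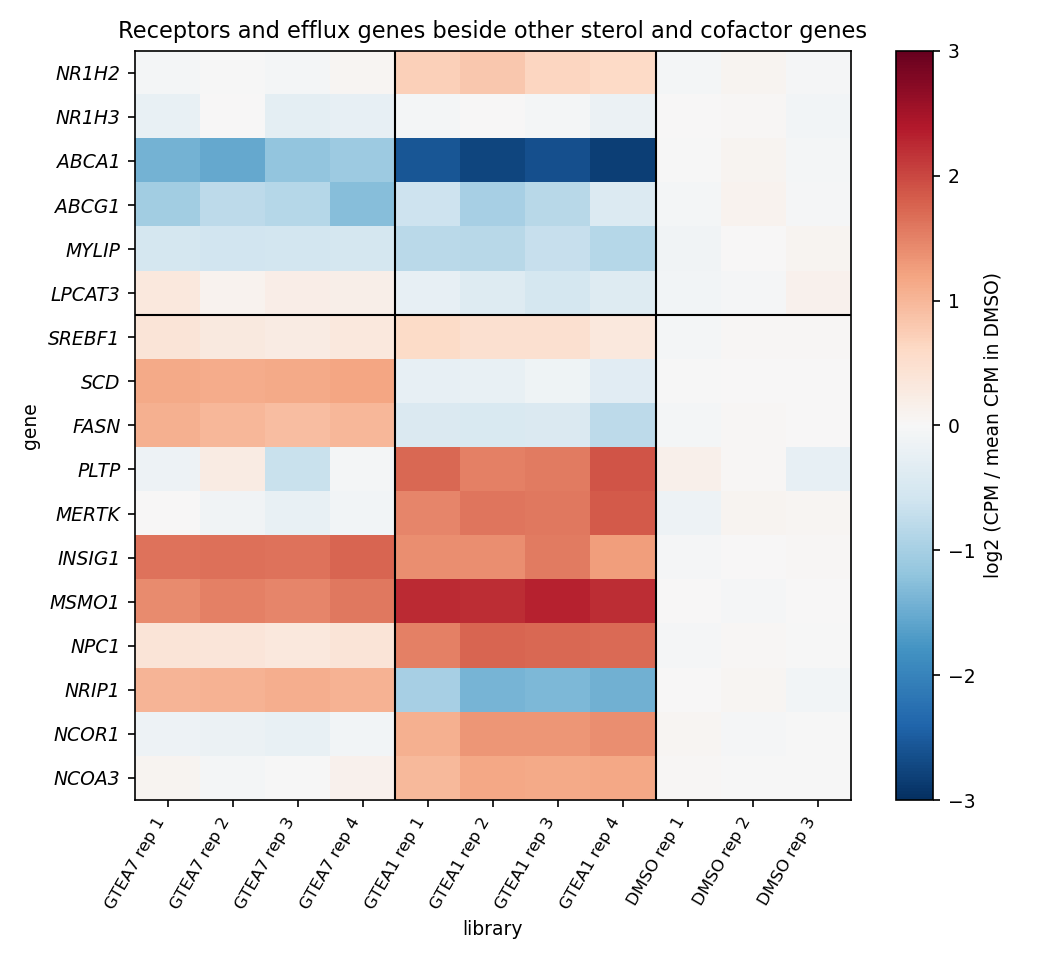
Log2 of CPM over the mean CPM in DMSO for the 6 genes (above the line) and 11 other sterol, lipid and cofactor genes, in every library (GTEA7, GTEA1, DMSO from left to right). Blue is below and red above the DMSO mean. ABCA1, ABCG1 and MYLIP are below it in all 8 extract libraries, and INSIG1 and MSMO1 are above it in all 8.

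Between the extracts, ABCA1, MYLIP and LPCAT3 were higher in GTEA7 and NR1H2 was lower, as given above. NRIP1 showed the widest gap of the cofactors, GTEA7 being higher than GTEA1 by 2.34 ± 0.057 on the log2 scale (adjusted p = 4.6e-36). SCD (1.38 ± 0.036) and ABCG2 (1.39 ± 0.12) were higher in GTEA7 than in GTEA1, at adjusted p = 5.7e-36 and 1.5e-14. NCOA3 (-1.08 ± 0.04), NPC1 (-1.31 ± 0.04) and PLTP (-1.79 ± 0.14) were lower in GTEA7, at adjusted p = 2.7e-27, 1.3e-32 and 2.3e-16. Of the other LXR targets 2 of 9 were higher and 6 lower in GTEA7 (88.9% passed). Of the SREBP2 list 9 of 14 were higher and 1 lower (71.4% passed). Between the extracts 72.7% of all tested genes passed (36.2% higher, 36.4% lower), so the SREBP2 share lies near the background. With only 9 LXR targets tested, their share is not a result about that list. Since doses were not given, the extracts are compared as they were applied.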

How the data were processed

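Raw read counts per gene were deposited by the authors, with 1 column for each of the 11 libraries. Per the submitters' processing notes, the tools included HTSeq 0.5.4, DESeq 1.10.1, SAMtools 0.1.18, STAR, GATK and Picard. The sources used here name no genome build, annotation or strand setting of the counting, so no coordinates are given for the counted genes. The promoter's coordinates are those of the RefSeq table (GRCh38.p14). Groups came from the labels, which put all libraries in batch 1. Symbols matched 42013 of 60624 Ensembl IDs. Lengths and overlaps came from GENCODE v29. Rows without an Ensembl ID held 0.727% of counts.

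Genes were filtered with filterByExpr, scaled by TMM and fitted in one model of all libraries with edgeR 4.0.16 in R 4.3.3 (robust quasi-likelihood, Benjamini-Hochberg over 17963 genes). The method was tested on simulated data in which only a small share of genes differed, in both directions equally. Far more genes passed in GTEA1 against DMSO, so that test does not check the scaling there. Replicate pairs differed by more than sampling noise, with a chi-square per gene between 1.39 and 4.1. The members, lists and tests were chosen with earlier results of these data known. Named are the 6 members, up to 4 passing genes per list and comparison with the smallest adjusted p (all where 5 or fewer passed), 16 genes whatever their values, and the 3 genes most correlated with each member. Some genes that this rule picks are not reported here, though the list counts include them. Alternatives were DESeq2 size factors, library size only, no or a stricter low-count filter, the replicate block, only the compared groups, limma-voom 3.58.1, DESeq2 1.42.0 and leaving out each library.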

Additional observations from a re-analysis of the deposited data

Results flagged for a closer look

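In 4 of 122 groups of 4 libraries tested, 1 library lay apart from the other 3 by Dixon's test, and chance gives about 1 in 20. None was a group of the 6 members, and all were in GTEA1. FASN had 336 CPM in replicate 4 and 419 to 431 CPM in the others, a gap of 0.871 of the range. LPCAT4 was at 92.2 CPM in replicate 4 and 102 to 103 CPM in the others (0.906 of the range). Replicate 1 stood apart for RXRA, at 62.8 CPM beside 58.3 to 59 CPM (0.847), and for TBL1X, at 91.7 CPM beside 97.9 to 98.7 CPM (0.897).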

How the results depend on the processing

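Of 342 refits of the member log2 fold changes, 330 kept direction and side of the threshold. NR1H2 in GTEA7 against DMSO ran from -0.05 to 0.03 when libraries were left out in turn, being above 0 without DMSO replicate 2, and NR1H3 in GTEA7 against GTEA1 was 0.01 with library size only, which also took NR1H3 in GTEA1 against DMSO past the threshold (-0.23). LPCAT3 in GTEA7 against DMSO stayed short of the threshold under 12 of the 19 alternatives. It passed with DESeq2 size factors (0.21), with only the compared groups (0.20) and without some single libraries. When libraries were left out it ran from 0.16 to 0.26. ABCG1 between the extracts ran from -0.36 to -0.15. Levels per kilobase in DMSO with the median transcript length were 9.6 for ABCA1, 2.07 for ABCG1, 9.89 for MYLIP, 20.2 for NR1H2, 14.9 for NR1H3 and 20.2 for LPCAT3. Scaled by library size they were 1.19 for ABCA1, 8 for NR1H2 and 4.5 for NR1H3. That scaling moved the median of all tested genes (log2) to -0.167 in GTEA1 and -0.0597 in GTEA7 against DMSO and 0.109 between the extracts. Of 1026 refits of list counts, 45 moved by over 1.5 times. Of the 3 genes most like a member, ranking by Spearman's rho kept 0 for MYLIP, NR1H2 and LPCAT3. It kept 1 for ABCA1 and for ABCG1, and 2 for NR1H3. Same-numbered libraries did not deviate together (correlations from -0.055 to 0.0262), and with the replicate block 3, 5 and 4 members passed in GTEA7 and GTEA1 against DMSO and between the extracts, as without it. ABCA1 rests on 24 to 29 counts per GTEA1 library, the main limit of depth.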
